A study of Homo sapiens with 6 samples.

Results

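The insulin-like growth factor (IGF) axis was followed in HepG2 cells through 10 genes: the ligand IGF2, the binding proteins IGFBP1, IGFBP2, IGFBP3 and IGFBP4, the receptors IGF1R, INSR and IGF2R, and the receptor substrates IRS1 and IRS2. The genes were chosen by their role in the axis, with the glycine contrast of these same libraries already known. Their differences are therefore given as a description, without p-values. All 10 genes were found by their Ensembl identifiers among the 57500 genes in the files, and all 10 passed the filter on low counts, as did 15492 genes in total.

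IGFs are peptide hormones related to insulin. They bind receptor tyrosine kinases on the cell surface, which phosphorylate docking proteins of the IRS family and so switch on the PI3K-AKT and RAS-ERK routes. AKT in turn keeps FOXO transcription factors out of the nucleus. In body fluids most IGF is held by binding proteins, which lengthen its life and limit its access to receptors. The liver is the main source of circulating IGF1 and IGFBP1, and fetal liver and many liver tumours express IGF2.

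RNA was sequenced from HepG2, an established line of wild-type human hepatocarcinoma cells, after 24 h with vehicle (3 libraries) or with glycine at 10 mM (3 libraries). Cells of both groups grew in a medium that already holds some glycine, so the comparison asks which transcripts respond to added glycine. The cells are a single tumour-derived line, and wells rather than donors were replicated. The study counts experiments on separate days as replicates, but which libraries share a day is not given, so the errors below measure the spread between these libraries.

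Library totals ranged from 31795489 to 58815986 counts. A single count was worth 0.0170 to 0.0315 CPM, counts scaled to a common library size by TMM factors, and 3 counts were worth 0.0510 to 0.0944 CPM. All 12 hepatocyte markers looked up were expressed, with a summed level of 30325 to 34396 CPM in the vehicle libraries and 26277 to 30011 CPM in the glycine libraries. Of the fibroblast markers 2 of 7 passed the filter (summed level 27.1 to 31.1 against 21.5 to 22.1 CPM, most of it PDGFRB), with DCN at 3 counts in all. Of the endothelial markers 3 of 4 passed (5.45 to 5.76 against 4.60 to 5.26 CPM), with KDR at 1 count, and of the leukocyte markers 3 of 4 passed (2127 to 2330 against 1698 to 1857 CPM, nearly all LYZ), with PTPRC at 9 counts. No marker was at 0 in all 6 libraries. All 4 sums were lower with glycine without overlap between groups, but single markers went both ways. FGA (log2 change 0.35), COL1A1 (1.03), CD14 (0.98) and CD68 (0.63) were called higher, and APOA1 (-0.26), TTR (-0.32), PDGFRB (-0.66), VWF (-1.18) and LYZ (-0.32) lower. Of the exon bases of CD68, 85.8% are shared with other genes, so its reads cannot be assigned with certainty. The part of these markers in the results below was not tested. All libraries are bulk samples of a single cell line, so the markers of other types give transcript levels and no count of such cells. Fewer cells expressing a marker and less RNA per cell cannot be told apart.

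Of the 10 genes, 3 (IGFBP1, IGF2 and IGFBP2) were called higher with glycine and 2 (IGF1R and INSR) were called lower by the edgeR quasi-likelihood fit across all genes, at an adjusted p under 0.05. IGFBP3, IGFBP4, IGF2R, IRS1 and IRS2 were not called. Across all tested genes 13.3% were called, 6.71% higher and 6.54% lower. Since the genes were selected on this contrast, their counts are not read against those shares. The groups did not overlap for 6 of the 10 genes, the 5 called genes and IRS1, and for 31.6% of all tested genes. The median log2 change was 0.15 over the 10 genes and 0.00 over all tested genes.

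**Figure D1:**
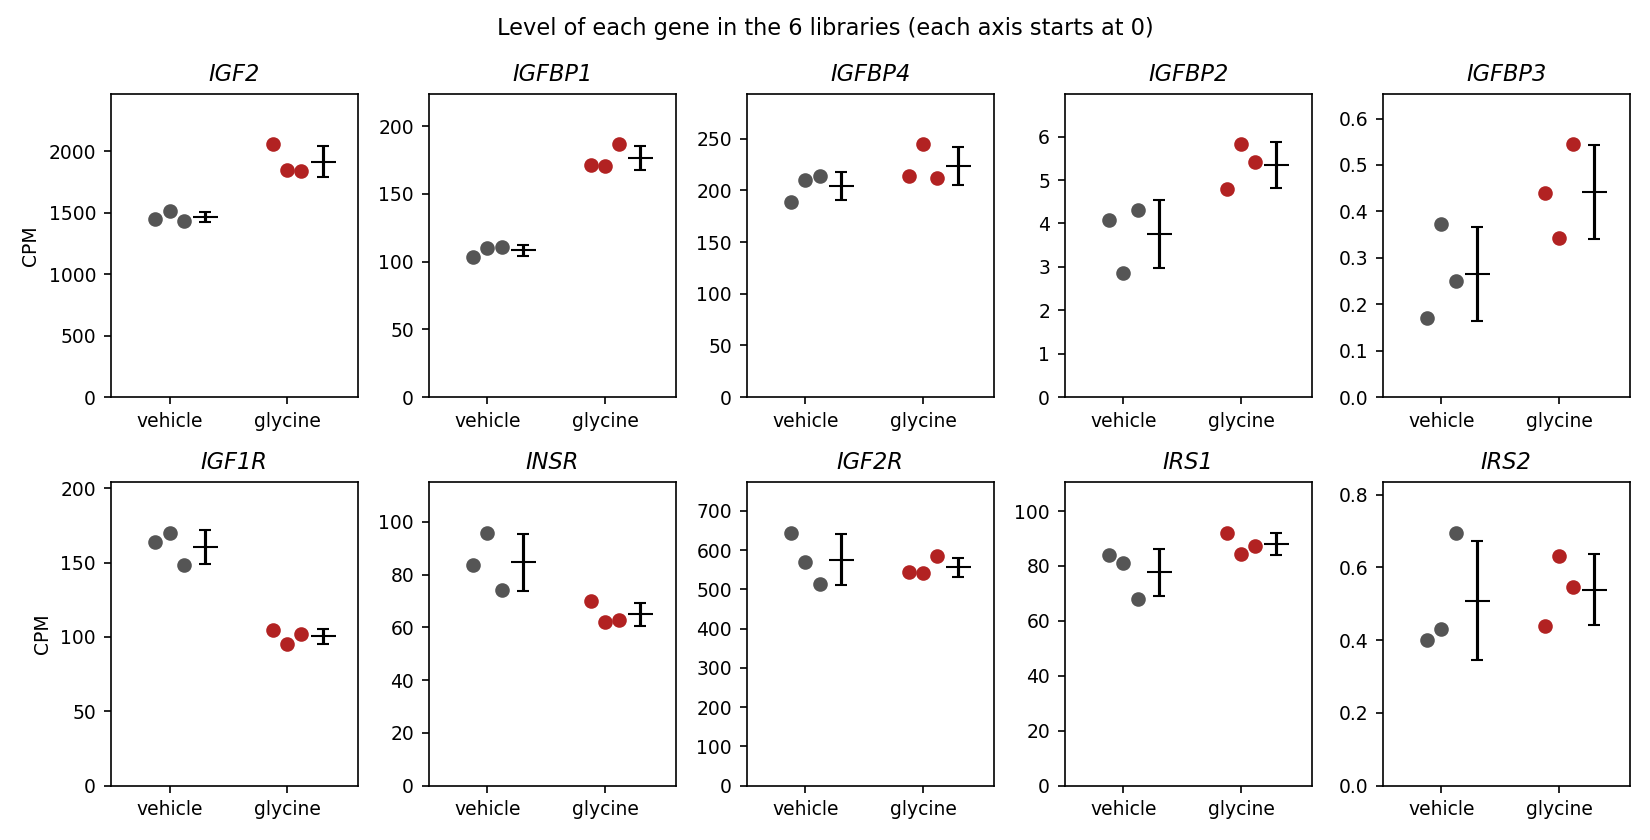
Level of the 10 genes in CPM (vertical axes, each from 0) in the 3 vehicle libraries (grey points) and the 3 glycine libraries (red points), with the mean and SD of each group as a black bar beside the points. All glycine points lie above all vehicle points for IGF2, IGFBP1, IGFBP2 and IRS1, below them for IGF1R and INSR, and the groups overlap for the other 4 genes.

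IGF2 encodes the growth factor of the axis that HepG2 cells express in quantity. The gene (ENSG00000167244) lies on the minus strand at chr11:2129112-2141238 of GRCh38. Its level was 1452, 1515 and 1435 CPM in the vehicle libraries and 2059, 1844 and 1840 CPM in the glycine libraries. Every glycine library was above every vehicle library, and the first glycine library was the highest of all. This gave a log2 change of 0.38 ± 0.078 (SE, n = 3 per group), a ratio of 1.30. Without that first glycine library the log2 change was 0.32 ± 0.0963 and IGF2 was no longer called. It was not called in a test against a 1.2-fold change either.

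Reads at this locus can belong to more than 1 gene model, since 23.4% of the exon bases of IGF2 are also in exons of other genes. The read-through gene INS-IGF2 shares 16.0% of them on the same strand and held 1 read in all 6 libraries together. Summing both genes left the log2 change at 0.38 ± 0.078, which so small a count could not move. The sum therefore does not settle how reads in the shared bases were assigned. The antisense gene IGF2-AS, which shares 1.45% of the bases, had 0.371, 0.430 and 0.389 CPM in the vehicle libraries and 0.470, 0.718 and 0.569 CPM in the glycine libraries, and was not called (edgeR adjusted p = 0.188).

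The other ligands were close to absent from the libraries. IGF1, the growth factor that liver secretes in response to growth hormone, had 2 counts in all, and 82.9% of its exon bases are shared with an antisense gene. INS, which encodes insulin, had 0 counts in every library, which allows up to 3 counts in each. IGF2 was the one ligand gene of the 3 to pass the filter.

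FURIN, a protease that cleaves proproteins in the secretory pathway, pro-IGF2 and the precursors of IGF1R and INSR among them, fell from 406, 408 and 392 CPM to 274, 295 and 266 CPM. The log2 change was -0.53 ± 0.066 (SE, n = 3 per group; edgeR adjusted p = 0.000152). It was the only one of 5 tested genes of binding protein cleavage and prohormone processing to be called, with 3 others of that list too low to test. Of all tested genes, 13.3% were called in either direction. STC2, an inhibitor of the pappalysin proteases, was at 90.2 to 111 CPM over the 6 libraries and was not called (log2 change -0.08, edgeR adjusted p = 0.596).

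IGFBP1 had the clearest separation among the binding protein genes. It encodes a liver-made binding protein whose transcription is repressed by insulin and rises in fasting and under stress. The gene (ENSG00000146678) lies on the plus strand at chr7:45888357-45893668. It was at 104, 110.3 and 111 CPM in the vehicle libraries and at 171, 171 and 187 CPM in the glycine libraries. The lowest glycine library stood far above the highest vehicle library, by more than the range within either group. Its log2 change of 0.70 ± 0.064 (SE, n = 3 per group) corresponds to a ratio of 1.63. IGFBP1 was called in all 15 alternative fits, with log2 changes of 0.65 to 0.73.

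IGFBP3, which encodes the main carrier of IGFs in serum, lies 18.58 kb from IGFBP1 on the opposite strand (ENSG00000146674, chr7:45912245-45921874), so that the ends of both genes face each other. Only 85 reads fell on it in all, namely 6, 13 and 9 counts in the vehicle libraries and 14, 20 and 23 in the glycine libraries. In CPM the vehicle libraries were at 0.171, 0.373 and 0.250 and the glycine libraries at 0.439, 0.342 and 0.545. The second vehicle library exceeded the second glycine library, so the groups overlapped. The log2 change of 0.71 ± 0.361 was as large as that of IGFBP1 but carried an error several times as wide, and the gene was not called. Leaving out single libraries moved the log2 change from 0.47 (without the first vehicle library) to 1.03 (without the second).

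IGFBP2 encodes a binding protein abundant in fetal serum. It lies on the plus strand at chr2:216632828-216664436 (ENSG00000115457). Its level was 4.08, 2.87 and 4.31 CPM with vehicle and 4.79, 5.83 and 5.43 CPM with glycine. The groups did not overlap, but the third vehicle library and the first glycine library lay close together. From 1121 reads in all, a log2 change of 0.52 ± 0.149 (SE, n = 3 per group) was fitted. The call was lost without the first vehicle library (log2 change 0.57 ± 0.17), the second vehicle library (0.36 ± 0.131), the second glycine library (0.45 ± 0.17) or the third glycine library (0.50 ± 0.172), and in the test against a 1.2-fold change. IGFBP5, whose gene faces that of IGFBP2 across 7668 bp, had 20 reads in all and was not tested.

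IGFBP4, a binding protein that mostly restrains IGF action, was the most abundant of the 4 in vehicle cells per length. The gene (ENSG00000141753, chr17:40443461-40457731, plus strand) was at 189, 210.3 and 214 CPM with vehicle and at 214, 245 and 212 CPM with glycine. The second glycine library was the highest, and the other two lay within the vehicle range. IGFBP4 was not called, with a log2 change of 0.13 ± 0.075.

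Per exon length, the 4 binding protein genes summed to 555 ± 17.3 TPM (counts divided by exon length and scaled to a common total) with vehicle and to 737 ± 19.5 TPM with glycine (SD, n = 3 each). IGFBP1 made up 42.0%, 40.9% and 40.6% of that sum in the vehicle libraries and 51.4%, 47.9% and 53.7% in the glycine libraries. IGFBP4 made up most of the rest, with means of 58.3 ± 0.762% and 48.4 ± 2.91% (SD, n = 3 each). The level of IGF2 divided by the sum of the 4 was 1.55, 1.48 and 1.39 with vehicle and 1.63, 1.36 and 1.40 with glycine. The ratio of IGF2 to these 4 binding protein transcripts therefore overlapped between groups, although both parts of it were higher with glycine.

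Further binding protein genes lay outside this sum of 4. Per exon length IGFBP7 averaged 30.8 TPM with vehicle and 46.1 TPM with glycine, and IGFBP6 35.9 and 41.9 TPM. Both were above IGFBP2 and IGFBP3. IGFBP7, a low-affinity relative of the family, rose from 17.2, 15.1 and 18.9 CPM to 22.5, 28.5 and 25.0 CPM (log2 change 0.58 ± 0.101, edgeR adjusted p = 0.00222). Of its exon bases 18.9% are shared with genes on the opposite strand, so some of its reads cannot be assigned with certainty. IGFBP6, which prefers IGF2 as its ligand, was at 12.4 to 14.2 CPM with vehicle and 14.4 to 16.0 CPM with glycine and was not called (edgeR adjusted p = 0.123). IGFALS, the liver protein that joins IGF and IGFBP3 in the ternary serum complex, was at 3.63, 3.30 and 3.62 CPM against 3.54, 2.96 and 3.44 CPM (edgeR adjusted p = 0.685).

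**Figure D2:**
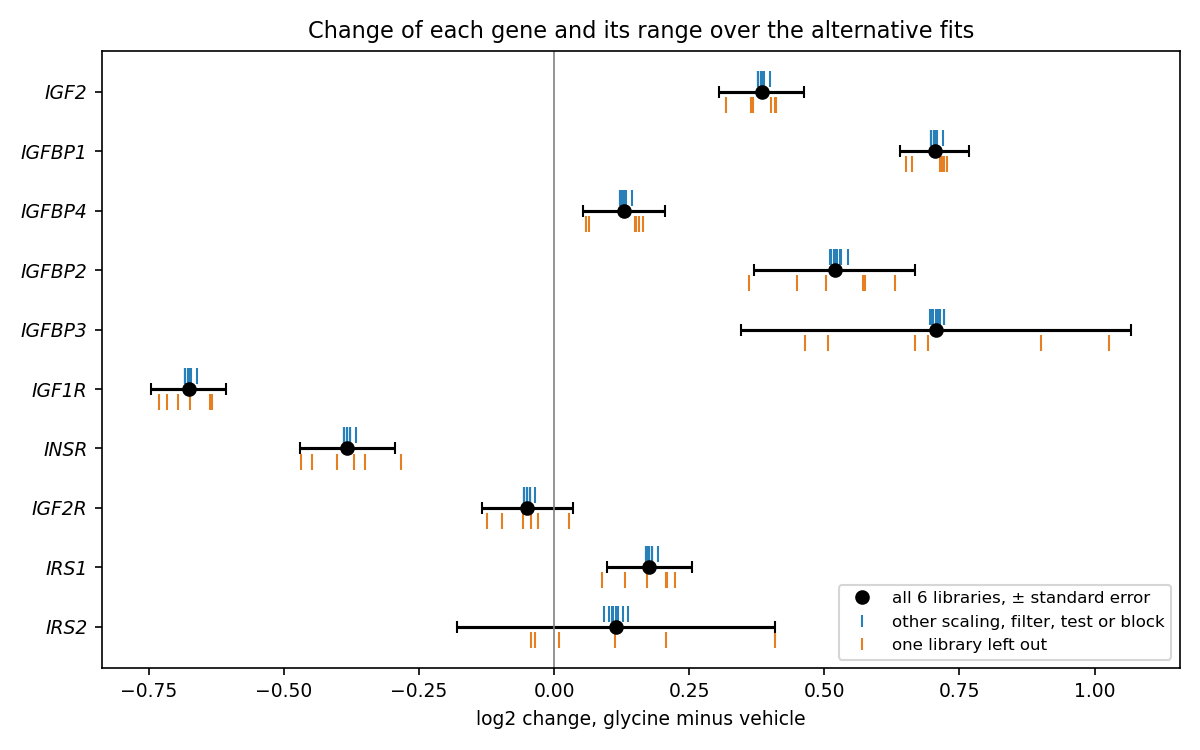
Log2 change of each of the 10 genes, glycine minus vehicle (horizontal axis), with black points and bars for the fit to all 6 libraries ± standard error, blue ticks for other scalings, filters, tests or the replicate block, and orange ticks for fits without 1 library. The orange ticks of IGFBP3 spread from 0.47 to 1.03 and those of IRS2 from -0.04 to 0.41, while those of IGFBP1 keep between 0.65 and 0.73 and those of IGF1R between -0.73 and -0.63.

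IGF1R and INSR, the 2 signalling receptors, were both lower with glycine. IGF1R encodes the tyrosine kinase that binds IGF1 and IGF2, and its gene (ENSG00000140443) spans chr15:98648971-98964530 on the plus strand. It was at 164, 170.1 and 148 CPM in the vehicle libraries and at 105, 95.0 and 102 CPM in the glycine libraries. The lowest vehicle library was well above the highest glycine library. The log2 change was -0.68 ± 0.0695 (SE, n = 3 per group), a ratio of 0.626, and the gene was called lower in all 15 alternative fits.

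INSR encodes the insulin receptor, which also binds IGF2 through its shorter isoform. Isoforms cannot be separated in counts per gene. The gene (ENSG00000171105, chr19:7112255-7294034, minus strand) was at 83.8, 95.9 and 74.4 CPM with vehicle and at 70.0, 62.0 and 63.0 CPM with glycine. The groups did not overlap, though the third vehicle library and the first glycine library lay close together. The log2 change was -0.38 ± 0.0875 (SE, n = 3 per group), with -0.28 ± 0.0794 without the second vehicle library. INSR was called lower in 14 of 15 alternative fits, all but the test against a 1.2-fold change.

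The ratio of both receptors differed between the groups too. On the TPM scale, IGF1R divided by INSR was 1.51, 1.37 and 1.54 with vehicle and 1.16, 1.19 and 1.25 with glycine, with no overlap. Both receptors summed to 69.7 ± 6.15 TPM with vehicle and to 48.1 ± 4.14 TPM with glycine (SD, n = 3 each).

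IGF2R is the cation-independent mannose 6-phosphate receptor, which carries lysosomal enzymes and takes IGF2 up for degradation without signalling as a kinase. The gene (ENSG00000197081, chr6:159969099-160113507, plus strand) was at 645, 569 and 515 CPM with vehicle and at 543, 542 and 585 CPM with glycine. The vehicle libraries spread over the whole range of the glycine libraries. Its log2 change was -0.05 ± 0.084, and 0.03 without the first vehicle library, so no direction can be given for this gene. IGF2R divided by IGF1R, on the TPM scale, was 3.57, 3.03 and 3.15 with vehicle and 4.70, 5.16 and 5.20 with glycine, with no overlap.

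Promoter sequence was available for 8 of the 10 genes, all except IGFBP1 and IGF2, as the 250 bases before a RefSeq gene start on GRCh38.p14. The promoters of the 3 receptors are shown because IGF1R and INSR were lower and IGF2R was not called, and that of IRS2 because it is the substrate gene near the detection limit. Capitals mark the motifs searched for on both strands: the GC box GGGCGG (read as CCGCCC on the other strand), the E-box CACGTG and the insulin response core TTGTTTT.
IGF1R, chr15:98648289-98648538, plus strand: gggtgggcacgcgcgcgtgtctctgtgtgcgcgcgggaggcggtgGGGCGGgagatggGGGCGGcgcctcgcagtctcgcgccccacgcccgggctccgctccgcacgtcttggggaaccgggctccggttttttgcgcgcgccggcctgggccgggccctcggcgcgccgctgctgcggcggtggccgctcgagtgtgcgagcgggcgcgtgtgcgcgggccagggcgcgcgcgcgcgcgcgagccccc
INSR, chr19:7294415-7294664, minus strand: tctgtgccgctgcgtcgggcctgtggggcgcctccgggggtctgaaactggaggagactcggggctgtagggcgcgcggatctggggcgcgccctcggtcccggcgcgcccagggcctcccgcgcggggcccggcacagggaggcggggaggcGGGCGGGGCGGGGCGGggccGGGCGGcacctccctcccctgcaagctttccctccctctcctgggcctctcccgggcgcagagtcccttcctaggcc
IGF2R, chr6:159968832-159969081, plus strand: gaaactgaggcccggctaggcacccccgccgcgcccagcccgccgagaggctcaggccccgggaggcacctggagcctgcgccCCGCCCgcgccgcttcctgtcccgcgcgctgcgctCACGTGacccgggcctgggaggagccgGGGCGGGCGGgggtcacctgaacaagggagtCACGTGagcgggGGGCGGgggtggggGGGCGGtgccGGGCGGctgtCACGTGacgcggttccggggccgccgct
IRS2, chr13:109786584-109786833, minus strand: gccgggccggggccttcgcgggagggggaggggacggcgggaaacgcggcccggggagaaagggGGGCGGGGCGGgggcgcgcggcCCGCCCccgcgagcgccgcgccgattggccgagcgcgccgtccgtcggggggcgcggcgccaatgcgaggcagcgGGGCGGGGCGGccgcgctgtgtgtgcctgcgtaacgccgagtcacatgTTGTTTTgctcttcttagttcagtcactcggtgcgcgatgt

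All 4 windows are rich in G and C. The GC content was 81.2% for IGF1R, 78.4% for INSR, 79.2% for IGF2R and 76.4% for IRS2, against a median of 58% over 35116 promoters. Only 2.32% of those promoters had at least the GC content of IGF1R. The GC box occurred 2 times in the window of IGF1R, 4 times in INSR, 6 times in IGF2R and 5 times in IRS2. In INSR 3 of the matches overlap by 1 base, and some matches in IGF2R and in IRS2 overlap too. Of all promoters, 42.6% held the GC box at least once. The E-box occurred 3 times in IGF2R and in none of the other 7 genes with a sequence, and 6.35% of all promoters held it. TTGTTTT occurred in IRS2 alone, 41 to 35 bases before the start, and in 6.64% of all promoters. The FOXO core TGTTTAC, found in 2.98% of all promoters, was in none of the 8 genes' windows. TATAAA, found in 10.7% of promoters, occurred in IGFBP4 alone, 29 to 24 bases before the start. A match is a description of the letters only, and a window without a match leaves the rest of the gene unexamined.

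IRS1 and IRS2, the docking proteins that link both receptors to PI3K, differed in level by about 2 orders of magnitude. IRS1 (ENSG00000169047, chr2:226731317-226799759, minus strand) was at 83.9, 81.1 and 68.0 CPM with vehicle and at 92.1, 84.2 and 87.1 CPM with glycine. The second glycine library was barely above the first vehicle library, so the groups did not overlap but nearly touched. IRS1 was not called, with a log2 change of 0.18 ± 0.079.

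IRS2 (ENSG00000185950, chr13:109752698-109786568, minus strand), in hepatocytes a gene induced by FOXO factors and repressed by insulin, had 14, 15 and 25 counts with vehicle and 14, 37 and 23 with glycine. This corresponds to 0.400, 0.430 and 0.695 CPM against 0.439, 0.632 and 0.545 CPM. The highest value of all 6 was in the third vehicle library. A log2 change of 0.11 ± 0.295 was fitted, which ranged from -0.04 without the first vehicle library to 0.41 without the third. A change of IRS2 was not detectable at this depth. IRS1 divided by IRS2, on the TPM scale, was 80.0 to 172 with vehicle and 109 to 172 with glycine.

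**Figure D3:**
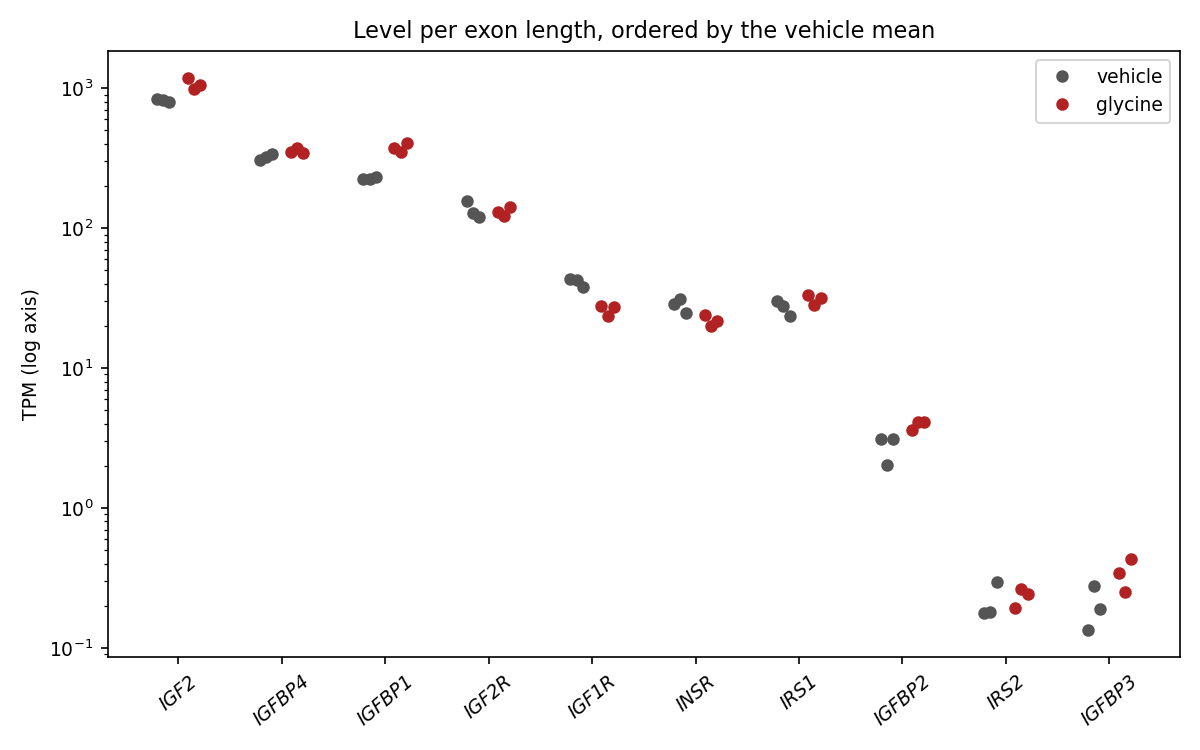
Level of the 10 genes per exon length in TPM (vertical log axis), ordered by the vehicle mean, in the 3 vehicle (grey) and 3 glycine (red) libraries. IGF2 leads in both groups, IGFBP1 reaches the level of IGFBP4 with glycine, IGF1R moves down to that of INSR, and IRS2 and IGFBP3 stay below 1 TPM.

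Per exon length, the order of the genes in vehicle cells was IGF2 (817 ± 21.1 TPM), IGFBP4 (324 ± 13.9), IGFBP1 (228 ± 3.62), IGF2R (135 ± 18.8), IGF1R (41.5 ± 3.04), INSR (28.2 ± 3.30), IRS1 (27.2 ± 3.37), IGFBP2 (2.75 ± 0.618), IRS2 (0.217 ± 0.0681) and IGFBP3 (0.201 ± 0.0714), each as mean ± SD (n = 3). Neighbours in this order had separate ranges except INSR with IRS1 and IRS2 with IGFBP3. In glycine cells IGF2 was at 1078 ± 95.2 TPM, and IGFBP1 (376 ± 29.9) and IGFBP4 (357 ± 15.4) had overlapping ranges. IGF2R followed at 131 ± 9.58 TPM, and then IRS1 (31.1 ± 2.40), whose range lay above that of IGF1R (26.2 ± 2.23). IGF1R overlapped INSR (21.9 ± 2.03). IGFBP2 was at 3.94 ± 0.290 TPM, and IGFBP3 (0.342 ± 0.0892) and IRS2 (0.232 ± 0.0350) overlapped. IGF1R thus stood above IRS1 in every vehicle library and below it in every glycine library.

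Further genes of the pathway were taken from 10 lists compiled by role, with earlier results of these libraries known. Of their 90 genes, 77 passed the filter, 7 were called higher, 12 lower and 58 were not called, with a median log2 change of -0.04. The share called was 24.7% (9.09% higher and 15.6% lower), beside 13.3% of all tested genes (6.71% higher and 6.54% lower). The 19 called genes were spread over 9 of the 10 lists. None of the 4 tested genes around IGF2 and its mRNA-binding proteins was called, and IGF2BP1, the fetal protein that binds IGF2 mRNA, had a log2 change of 0.18.

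**Figure D4:**
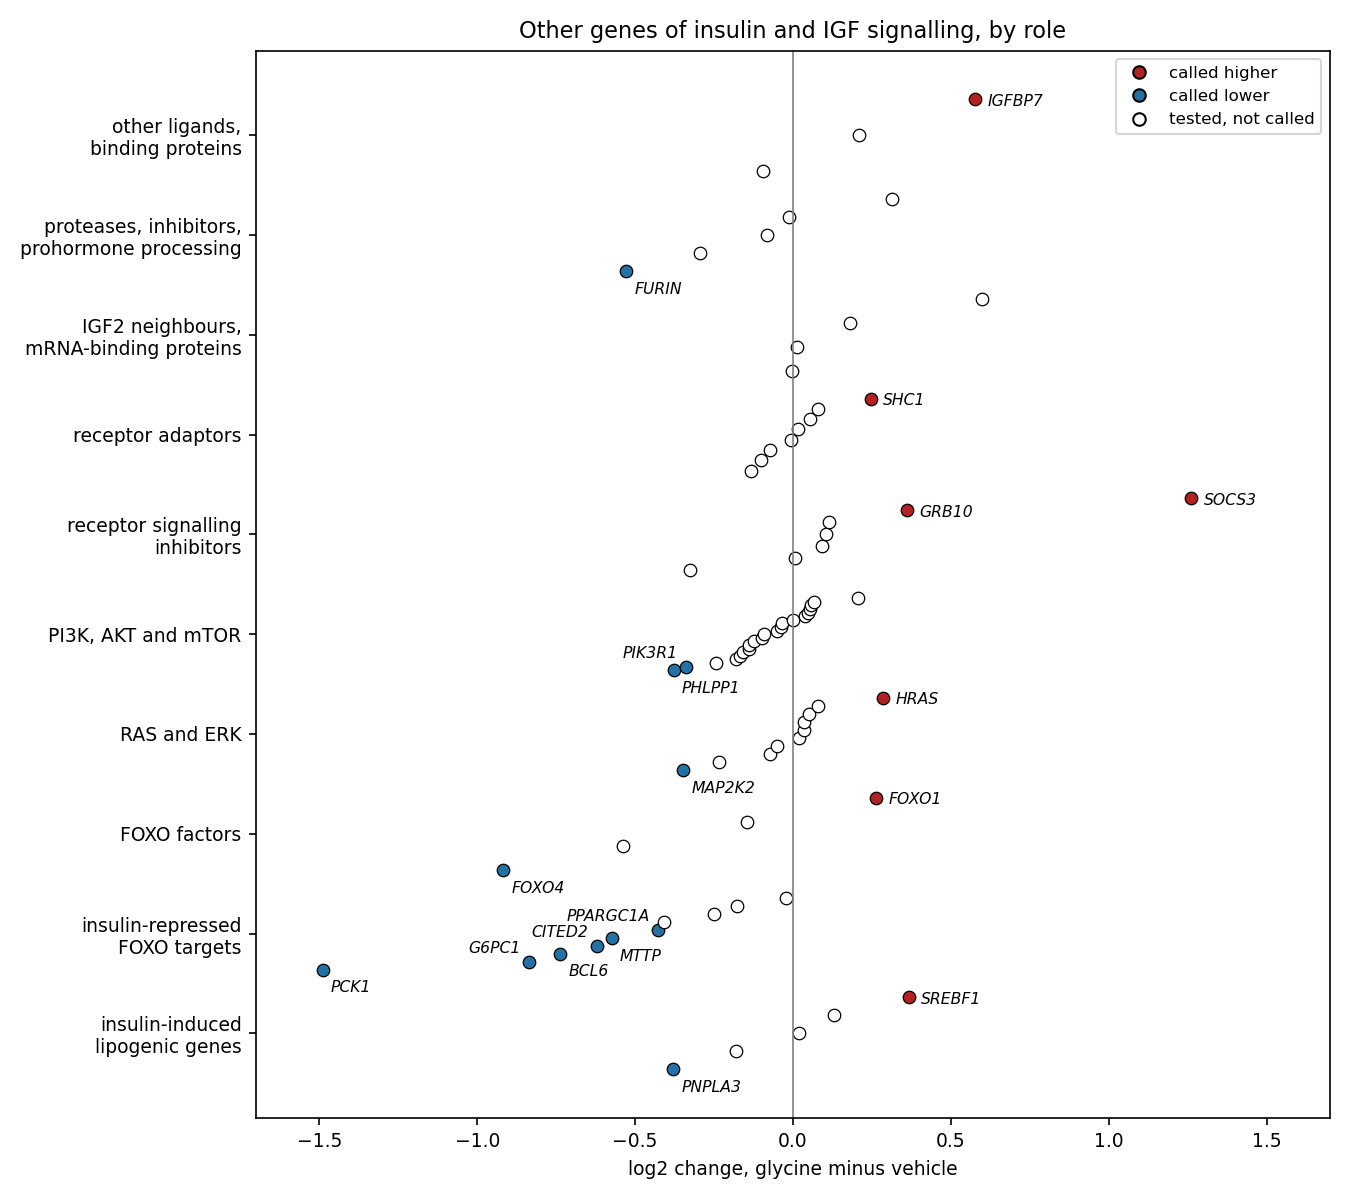
Log2 change, glycine minus vehicle (horizontal axis), of the 77 tested genes of the 10 pathway lists (rows), with red points for genes called higher, blue for genes called lower and open points for genes not called (edgeR, adjusted p under 0.05 over all tested genes). Blue points are the most frequent in the row of insulin-repressed FOXO targets, where 6 of 10 are called lower and 0 higher.

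Between the receptors and their substrates, 2 of 7 tested inhibitors of receptor signalling were called higher, beside 6.71% of all tested genes. SOCS3, a cytokine-induced protein that binds the insulin receptor and IRS proteins, rose from 0.714, 0.975 and 0.723 CPM to 1.82, 2.07 and 1.87 CPM (log2 change 1.26 ± 0.194, edgeR adjusted p = 0.000848), from 343 reads in all. GRB10, an adaptor that inhibits both receptor kinases, rose from 25.2, 25.5 and 23.5 CPM to 31.2, 30.7 and 33.4 CPM (log2 change 0.36 ± 0.0695, edgeR adjusted p = 0.00428). Among 8 tested adaptors 1 was called, beside 13.3% of all tested genes. SHC1, which couples receptors to RAS, was higher by 0.25 on the log2 scale (edgeR adjusted p = 0.0354). The SHC1 call was lost without any single library other than the second vehicle library (adjusted p of 0.0737 to 0.148), and 15.2% of its exon bases are shared with other genes.

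Further downstream, 2 of 21 tested genes were called in the PI3K, AKT and mTOR list and 2 of 10 in the RAS and ERK list, beside 13.3% of all tested genes. AKT1 had a log2 change of -0.05. Both called genes of the first list were lower: PIK3R1, the regulatory subunit of PI3K that binds IRS proteins (log2 change -0.34, edgeR adjusted p = 0.0203), and PHLPP1, a phosphatase of AKT (-0.38, edgeR adjusted p = 0.00254). The PIK3R1 call was lost without vehicle libraries 1 or 2 or glycine libraries 2 or 3 (adjusted p of 0.0532 to 0.0888). In the second list, HRAS was higher (0.29, edgeR adjusted p = 0.0261) and the kinase gene MAP2K2 lower (-0.35, edgeR adjusted p = 0.00956). The HRAS call was lost without vehicle libraries 1 or 2 or glycine libraries 1 or 2 (adjusted p of 0.0598 to 0.121).

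Of the FOXO factors, which insulin and IGF signals hold in the cytoplasm, FOXO4 fell from 28.6, 28.2 and 30.1 CPM to 15.9, 16.4 and 13.6 CPM (log2 change -0.92 ± 0.0823, edgeR adjusted p = 9.96e-06). FOXO1, known to act at the IGFBP1, PCK1 and G6PC1 promoters, was higher by 0.26 on the log2 scale (edgeR adjusted p = 0.0329). The FOXO1 call was lost with the replicate number as a block (adjusted p = 0.0546) and without vehicle libraries 1 or 3 or glycine libraries 1 or 3 (0.0899 to 0.162).

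IGFBP1 is itself a classical insulin-repressed FOXO target, so a list of 11 other genes of that class was set beside it. IRS2, described above as of the same class, was not in the list and was not called (log2 change 0.11 ± 0.295). Of 10 tested, 6 were called lower and 0 higher, with a median log2 change of -0.50, beside 6.54% lower, 6.71% higher and a median of 0.00 over all tested genes. This list too was compiled with earlier results known, so its direction is no independent evidence. PCK1, a gene of gluconeogenesis, fell from 2.17, 1.69 and 1.53 CPM to 0.564, 0.684 and 0.640 CPM (log2 change -1.49 ± 0.212, edgeR adjusted p = 0.000471). G6PC1, which encodes the last enzyme of glucose release, was at 1.71, 1.49 and 1.81 CPM with vehicle and at 0.815, 0.735 and 1.28 CPM with glycine (-0.84 ± 0.226, edgeR adjusted p = 0.0274). IGFBP1 was thus higher in every glycine library while PCK1 and G6PC1 were lower in every one. PCK1 rests on 275 reads in all and G6PC1 on 300, against 34822 for IGFBP1.

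The other 4 called targets were the transcriptional repressor BCL6 (log2 change -0.74, edgeR adjusted p = 4.10e-05), the coregulator CITED2 (-0.62, edgeR adjusted p = 0.000666), the lipid transfer protein MTTP (-0.57, edgeR adjusted p = 0.000104) and the coactivator PPARGC1A (-0.43, edgeR adjusted p = 0.0125). SESN3, APOC3, SESN1 and CCNG2 had log2 changes of -0.41, -0.25, -0.18 and -0.02 and were not called, and PDK4 had 9 reads in all. The G6PC1 call was lost without vehicle libraries 1 or 3 or glycine libraries 1 or 2 (adjusted p of 0.0689 to 0.132). That of PPARGC1A was lost without the first vehicle library (adjusted p = 0.0504) or the second glycine library (0.0506). Of the exon bases of BCL6, 8.24% are shared with genes on the opposite strand.

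**Figure D5:**
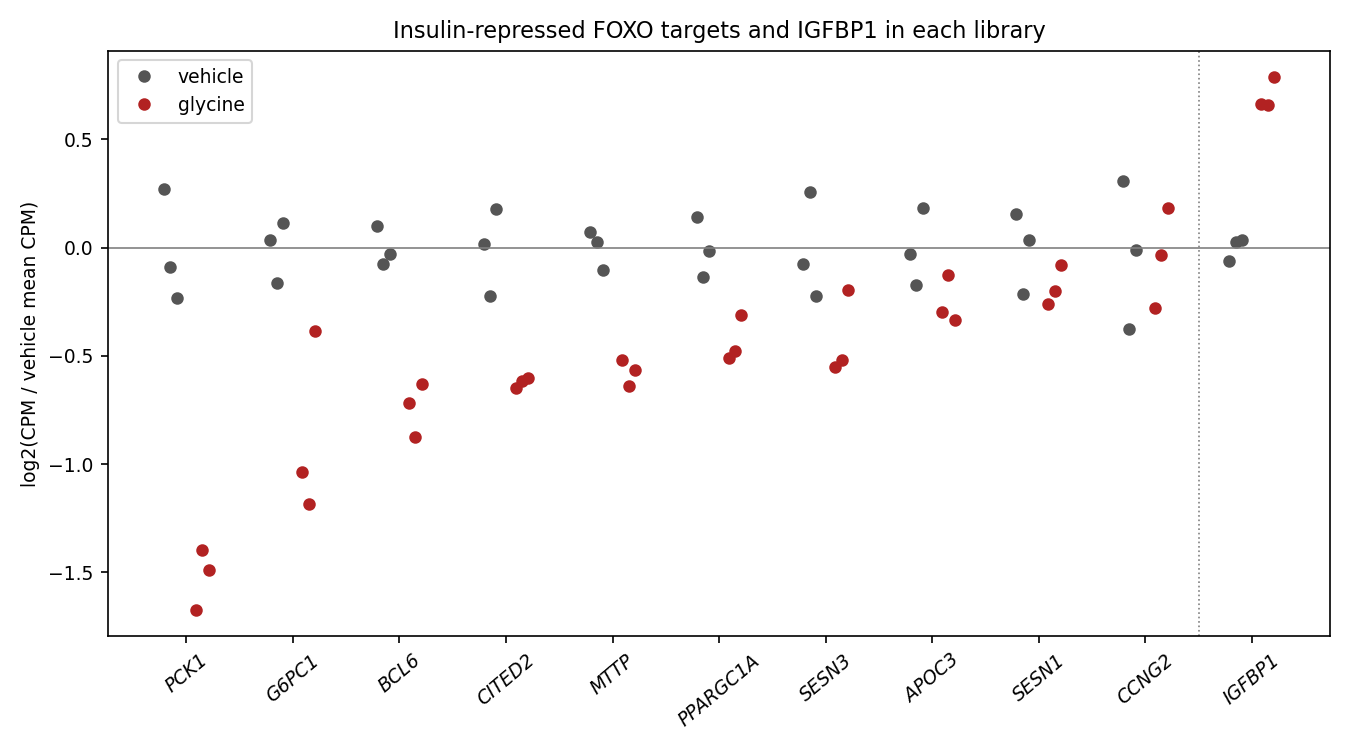
Log2 of CPM over the vehicle mean (vertical axis) in the 3 vehicle (grey) and 3 glycine (red) libraries. Shown are the 10 tested genes of the list of insulin-repressed FOXO targets and, right of the dotted line, IGFBP1. The red points of PCK1, G6PC1, BCL6, CITED2, MTTP and PPARGC1A lie below all their grey points, and those of IGFBP1 lie above.

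Of 5 tested lipogenic genes that insulin induces, 1 was called higher and 1 lower, beside 6.71% higher and 6.54% lower over all tested genes. SREBF1, which encodes a lipogenic transcription factor, was higher (log2 change 0.37, edgeR adjusted p = 0.00956) and PNPLA3, a lipid droplet hydrolase gene that it controls, was lower (-0.38, edgeR adjusted p = 0.0257). FASN, ACACA and SCD were not called. The SREBF1 call was lost without the third glycine library (adjusted p = 0.0579), and that of PNPLA3 without the first vehicle library (0.0959) or the second glycine library (0.104).

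Likeness of pattern was measured as the root-mean-square difference of log2 CPM over the 6 libraries, each gene centred on its vehicle mean, over 9111 genes that averaged 10 CPM or more. The gene with the largest change of the 10 was IGFBP3 (0.71 against 0.70 for IGFBP1), and those nearest to it were RAB3B (0.255), SDC3 (0.256), ANXA3 (0.260), FILIP1L (0.263) and MYO15B (0.273). Its own levels rest on 6 to 23 counts per library. For IGFBP1, picked after its values were seen, the nearest were ANKRD1 (0.0381), FILIP1L (0.0586), IL4R (0.0673) and CDH1 (0.0704). ANKRD1 went from a mean of 54.1 to 90.5 CPM, a log2 change of 0.74 beside 0.70 for IGFBP1.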

How the data were processed

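The authors deposited 1 table of raw read counts per gene for each library. Per the submitters' processing notes they used Trimmomatic 0.36, STAR 2.5.2b, featureCounts of Subread 1.5.2 and GRCh38. Strand setting and annotation release are not given in the sources used here, so reads in overlapping or antisense genes are uncertain. Symbols were found for 56410 of 57500 genes.

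The counts were tested with the quasi-likelihood F test of edgeR 4.0.16 (R 4.3.3), two-sided, with group as the only term, TMM scaling, the default low-count filter (count 10, total 15) and Benjamini-Hochberg adjustment over 15492 genes at 0.05. CPM used TMM-scaled library sizes, and TPM the exon lengths in the files. Limits from counts cover counting error only, since reads carry no molecular identifiers. The 10 genes and all lists were chosen with earlier results of these data known. Named are the 10 genes, every pathway gene past the threshold, defining ligands and carriers too low to test, and the 5 genes nearest in pattern to the gene with the largest change. Any other gene was picked after its values were seen. Some listed genes are not reported here.

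Alternatives were 3 other scalings, 2 other filters, DESeq2 1.42.0, limma-voom (limma 3.58.1), a 1.2-fold test threshold, a replicate block, IGF2 summed with INS-IGF2, and leaving out each library. Chi-square values between replicates (7.59 to 29.3 per degree of freedom) showed no duplicated library. In a simulation of glycine against vehicle, with a log2 change of 1 in 200 of 15492 genes, edgeR found 178 (89%) and made 7 false calls, and it made 0 calls with no gene changed.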

Additional observations from a re-analysis of the deposited data

How the results depend on the processing

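Every one of the 10 genes kept its direction under all scalings, filters and tests in which it was tested, with IGF2R and IRS2 changing sign only in fits without 1 library. IGFBP1 and IGF1R stayed called in all 15 alternatives. The test against a 1.2-fold change left 235 genes called higher and 246 lower, 1 and 1 of the 10 genes, and 2 and 6 of the pathway genes, fewer by construction because it asks for a larger change. Without 1 library, 587 to 926 genes were called higher and 655 to 1010 lower, 2 to 3 of the 10 genes higher and 2 lower in every such fit, and 4 to 6 pathway genes higher and 8 to 12 lower. The largest drops were without vehicle library 1 (590 higher) or glycine libraries 1 (594), 2 (617 higher and 655 lower) or 3 (587), and the 4 pathway genes without vehicle library 1 or glycine libraries 1 or 3. These fits hold fewer samples. With the replicate block 866 genes were called higher and 918 lower, 3 and 2 of the 10 genes and 6 and 12 of the pathway genes, FOXO1 being the call lost. The numbers were not taken as a pairing, since which libraries share a day is not given. The deviations of same-numbered libraries correlated at -0.0577, -0.0268 and -0.00258. Vehicle 1 with glycine 3 correlated at 0.214, vehicle 2 with glycine 1 at 0.214 and vehicle 3 with glycine 2 at 0.18. Vehicle 3 with glycine 1 was at -0.168, vehicle 1 with glycine 2 at -0.154 and vehicle 2 with glycine 3 at -0.198. A pairing other than by number was not tested. IGFBP3 and IRS2, at 85 and 128 reads in all, are limited by depth.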

Other observations

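Some transcripts of the axis lay under the filter on low counts, with most reads in the glycine libraries. H19, the noncoding imprinted neighbour of IGF2, had 0, 0 and 2 counts with vehicle and 2, 6 and 9 with glycine. IGFBP5 had 2, 2 and 1 counts against 0, 8 and 7. Glycine libraries 2 and 3 were the largest of the 6. Glycine library 1, the smallest, held the fewest of these reads among the glycine libraries for both genes. These genes were picked after their counts were seen and were not tested. PAPPA, a protease of IGFBP4, had 5, 9 and 6 counts against 9, 14 and 6.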
